A study of Mus musculus with 6 samples.

Results

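The genes described here are the nuclear genes of oxidative phosphorylation, found by their symbols in the authors' gene table (names that begin with Nduf, Uqcr, Cox followed by a digit 4 to 8, or Atp5, and the 4 Sdh genes). Of 36699 gene rows, 86 matched. They comprise 40 rows for complex I, 4 for complex II, 8 for complex III, 17 for complex IV and 17 for complex V. RNA came from mouse A2Lox.cre embryonic stem (ES) cells, a line built for doxycycline-inducible transgenes, taken on day 3 of embryoid body culture after growth on mouse embryonic fibroblasts that were stripped away before plating. In one group, 3 libraries, doxycycline was added on day 2 and kept for 24 hours, which switched on Flag-Sp5, a tagged form of the zinc-finger factor Sp5. In the other group, 3 libraries, cells of the same inducible line had received none. The labels do not say whether the libraries came from separate cultures, and no group with the drug but no transgene was analysed here, so effects of drug and transgene cannot be told apart.

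Oxidative phosphorylation makes ATP in the inner mitochondrial membrane. Complex I oxidises NADH and complex II oxidises succinate, complex III passes the electrons on to cytochrome c, and complex IV passes them to oxygen. The proton gradient that complexes I, III and IV build drives complex V, the ATP synthase. All subunits of complex II and most subunits of the other complexes are encoded in the nucleus, and the remaining ones in mitochondrial DNA. Pluripotent stem cells are known for high glycolysis beside active respiration, and respiration is known to gain weight as they differentiate.

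Each level below is the FPKM value (fragments corrected for the length of the transcript and for the library's total) that the authors deposited for a group. It merges 3 libraries, so it has no SD, and values for single libraries were not analysed here. Error is given through the authors' own test. The standard error of a log2 fold change (doxycycline-treated over untreated) was the fold change divided by the deposited test statistic, and intervals are 95% normal intervals from it, which hold only as far as the authors' model of spread between libraries holds. A gene is said to have risen or fallen where the authors' deposited table gives q under 0.05, and q there is adjusted over all tested rows. The table has no counts, so sequencing depth is unknown.

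Sp5 stood at 126 FPKM in doxycycline-treated cells, against 0.769 FPKM in untreated cells, the direction the labels state. Of 9 ES cell markers, 4 rose, 2 fell and 3 were not called, a share of 66.7% called, against 23.2% of all tested rows. Nanog rose to 117 FPKM in doxycycline-treated cells, against 46.0 FPKM in untreated cells (2.54-fold), and Utf1 fell to 119 FPKM in doxycycline-treated cells, against 314 FPKM in untreated cells (2.64-fold lower). Pou5f1 stood at 1058 FPKM in doxycycline-treated and 999 FPKM in untreated cells and was not called. Of 11 tested markers of fibroblasts, the feeder cells, Col1a1 rose, Thy1, Pdgfrb and Dcn fell and 7 were not called, and Lum had too few fragments to be tested. The share called was 36.4%, against 23.2% of all tested rows. The tested fibroblast markers summed to 21.6 FPKM in doxycycline-treated cells and 22.1 FPKM in untreated cells. These sums hide opposite changes. Col1a1 had 4.43 FPKM in doxycycline-treated and 1.11 FPKM in untreated cells, and Thy1 had 6.42 FPKM in doxycycline-treated and 9.34 FPKM in untreated cells. The part of either marker list in the results below was not tested. In such bulk RNA, fewer cells of a type and less RNA per cell cannot be told apart.

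Most nuclear genes of oxidative phosphorylation had close to the same level with and without induced Sp5. Of the 83 members tested, 3 rose and 4 fell, and the other 76 were not called, a share of 8.43% called. Among all 18537 tested rows the share called was 23.2%, with 10.5% called higher and 12.7% called lower. The members that rose were Cox4i2, Ndufaf4 and Ndufa12, and those that fell were Uqcrc1, Ndufaf3, Ndufv3 and Ndufs8. Only Cox4i2 differed by 1.5-fold or more.

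These genes were among the more highly expressed in the table. Of the 83 tested members, 81 reached 1 FPKM in the higher group, 77 reached 10 FPKM and 70 reached 50 FPKM. Of all tested rows, 9.97% reached 50 FPKM. Median levels per length were lowest for complex I, at 86.2 FPKM in doxycycline-treated and 86.1 FPKM in untreated cells. For complex II they were 97.6 FPKM in doxycycline-treated and 94.2 FPKM in untreated cells. Complex III had medians of 271 FPKM in doxycycline-treated and 270 FPKM in untreated cells, complex IV of 296 FPKM in doxycycline-treated and 294 FPKM in untreated cells, and complex V of 315 FPKM in doxycycline-treated and 338 FPKM in untreated cells. The order of the complexes by median was the same in both groups, and the ranges of members overlapped between complexes. These medians have no error, so the step from complex III to IV to V is not shown to be a difference. They also mix common subunits with isoforms of restricted use and other genes. The common subunits of complex IV alone had medians of 405 FPKM in doxycycline-treated and 400 FPKM in untreated cells. In complex V, medians in doxycycline-treated and untreated cells were 370 and 390 FPKM for F1 subunits, and 334 and 359 FPKM for Fo and stalk subunits.

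**Figure D1:**
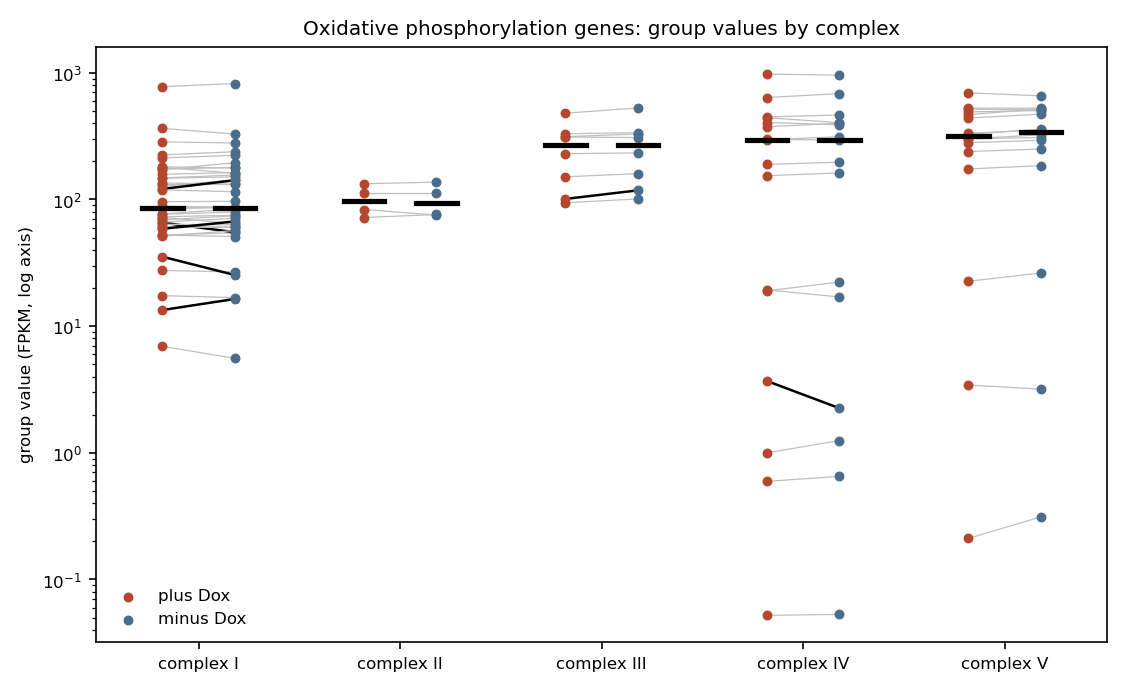
Group value of each nuclear oxidative phosphorylation gene in FPKM (log axis), by complex, with doxycycline-treated cells on the left and untreated cells on the right of each pair. Lines join the same gene (black for the 7 called genes), thick bars are medians of tested members, and the 2 genes listed at 0 (Atp5b and Cox8b) are not drawn. Most lines are level, and the medians of complexes I and II sit below those of complexes III to V in both groups.

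The 70 members at 50 FPKM or more had log2 fold changes between -0.24 and 0.25, so each differed by less than 1.2-fold. Their standard errors ran from 0.062 to 0.13 (median 0.068), and all 70 intervals lay inside 1.5-fold in either direction, with 51 inside 1.2-fold. Among all tested rows at 50 FPKM or more, 83.6% differed by less than 1.2-fold, with a median standard error of 0.074. In that same range of level, 4 of 70 members were called, against 24.8% of all 1849 tested rows, of which 5.52% were called higher and 19.3% lower. Over all levels, the intervals of 77 of the 83 tested members lay inside 1.5-fold. The 6 others were the called genes Cox4i2 and Ndufaf4 and 4 members under 10 FPKM with wide intervals, namely Ndufa4l2, Cox7b2, Cox8c and Atp5l2.

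More members were nominally lower than higher in doxycycline-treated cells, 54 against 29. Among all tested rows 9915 were lower and 8369 higher. At 50 FPKM or more, 1358 tested rows were lower and 481 higher, and of the members there 48 and 22. The median log2 fold change of the tested members was -0.04, against -0.03 for all tested rows and -0.08 for tested rows at 50 FPKM or more. Measured from the median of all tested rows at 1 FPKM or more, the members' median was 0.000414, so its sign depends on the scaling. At an unadjusted p under 0.05 there were 16 members (19.3%), against 31.2% of all tested rows in the authors' deposited table.

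**Figure D2:**
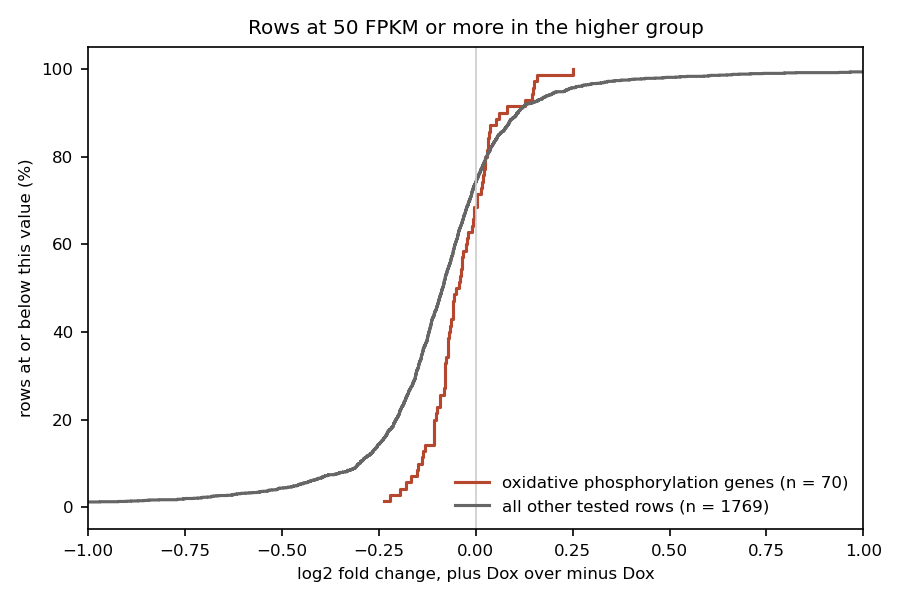
Cumulative share of rows (percent) against the log2 fold change, doxycycline-treated over untreated, for the 70 oxidative phosphorylation genes and the 1769 other tested rows with a fold change whose higher group value is 50 FPKM or more. The central 90% of the members spanned -0.17 to 0.15, and that of the other rows -0.46 to 0.23. The axis is drawn from -1 to 1, and rows beyond it are counted but not shown.

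Complex I is the largest complex of the chain. Its members included 7 core subunits, most of which carry the flavin or iron-sulphur cofactors or bind the quinone. The others were 28 accessory subunits, 4 assembly factors of the Ndufaf series, and the isoform Ndufa4l2. Of these 40, 2 rose, 3 fell and 35 were not called, a share of 12.5% called, against 23.2% of all tested rows. The core subunits ranged from 51.3 to 172 FPKM in doxycycline-treated cells and from 56.9 to 195 FPKM in untreated cells. One of the 7 was called. Ndufs8, an iron-sulphur subunit of the matrix arm, fell to 58.7 FPKM in doxycycline-treated cells, against 67.1 FPKM in untreated cells (log2 fold change -0.19, SE 0.068, q = 0.022 in the authors' deposited table; mm9 chromosome 19, 3908870 to 3912717). Measured from the median of all tested rows at 50 FPKM or more, its log2 fold change was -0.11, with an interval of -0.24 to 0.02 that holds 0. Ndufv2, which holds an iron-sulphur cluster next to the flavin, stood just outside the threshold, at 172 FPKM in doxycycline-treated and 195 FPKM in untreated cells (q = 0.0553 in the authors' deposited table). Ndufv1, the subunit that binds NADH, had 73.0 FPKM in doxycycline-treated and 75.1 FPKM in untreated cells and was not called. Ndufs1, Ndufs3 and Ndufs7 had log2 fold changes from -0.15 to 0.04 and were not called.

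Among the 28 accessory subunits, which surround the core, 1 rose and 1 fell. Ndufa12, an accessory subunit of the matrix arm, rose to 65.6 FPKM in doxycycline-treated cells, against 55.1 FPKM in untreated cells (1.19-fold, log2 interval 0.08 to 0.43, q = 0.0248 in the authors' deposited table; mm9 chromosome 10, 93661700 to 93684188). Ndufv3, another subunit of the matrix arm, fell to 121 FPKM in doxycycline-treated cells, against 142 FPKM in untreated cells (log2 fold change -0.24, interval -0.39 to -0.08, q = 0.02 in the authors' deposited table; mm9 chromosome 17, 31657060 to 31668266). Measured from the median of tested rows at 50 FPKM or more, the value for Ndufv3 was -0.15, and its interval of -0.31 to 0.01 holds 0. Ndufs6 (179 FPKM in doxycycline-treated and 161 FPKM in untreated cells) and Ndufa7 (364 FPKM in doxycycline-treated and 328 FPKM in untreated cells) had intervals above 0 but did not pass the q threshold (q = 0.0788 for Ndufs6 and q = 0.1 for Ndufa7 in the authors' deposited table). Levels per length within the accessory group spanned 27.5 to 777 FPKM in doxycycline-treated cells and 26.8 to 823 FPKM in untreated cells. The lowest was Ndufa11 and the highest Ndufa4, whose protein is now counted with complex IV. Ndufab1, the mitochondrial acyl carrier protein that also serves fatty acid synthesis, had 225 FPKM in doxycycline-treated and 238 FPKM in untreated cells and was not called.

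Of the 4 assembly factors, proteins that help to build the complex without staying in it, 1 rose and 1 fell, and these held the largest estimates among the called genes of complex I. Ndufaf4 rose to 35.3 FPKM in doxycycline-treated cells, against 25.3 FPKM in untreated cells (1.4-fold, log2 interval 0.27 to 0.69, q = 6.69e-05 in the authors' deposited table; mm9 chromosome 4, 24825230 to 24832148). Ndufaf3, whose protein is known to act together with Ndufaf4 early in assembly, fell to 13.4 FPKM in doxycycline-treated cells, against 16.4 FPKM in untreated cells (log2 fold change -0.29, interval -0.46 to -0.11, q = 0.00949 in the authors' deposited table; mm9 chromosome 9, 108468197 to 108469673). The 2 intervals lie on opposite sides of 0. Ndufaf1 (17.4 FPKM in doxycycline-treated and 16.8 FPKM in untreated cells) and Ndufaf2 (66.3 FPKM in doxycycline-treated and 71.0 FPKM in untreated cells) were not called.

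**Figure D3:**
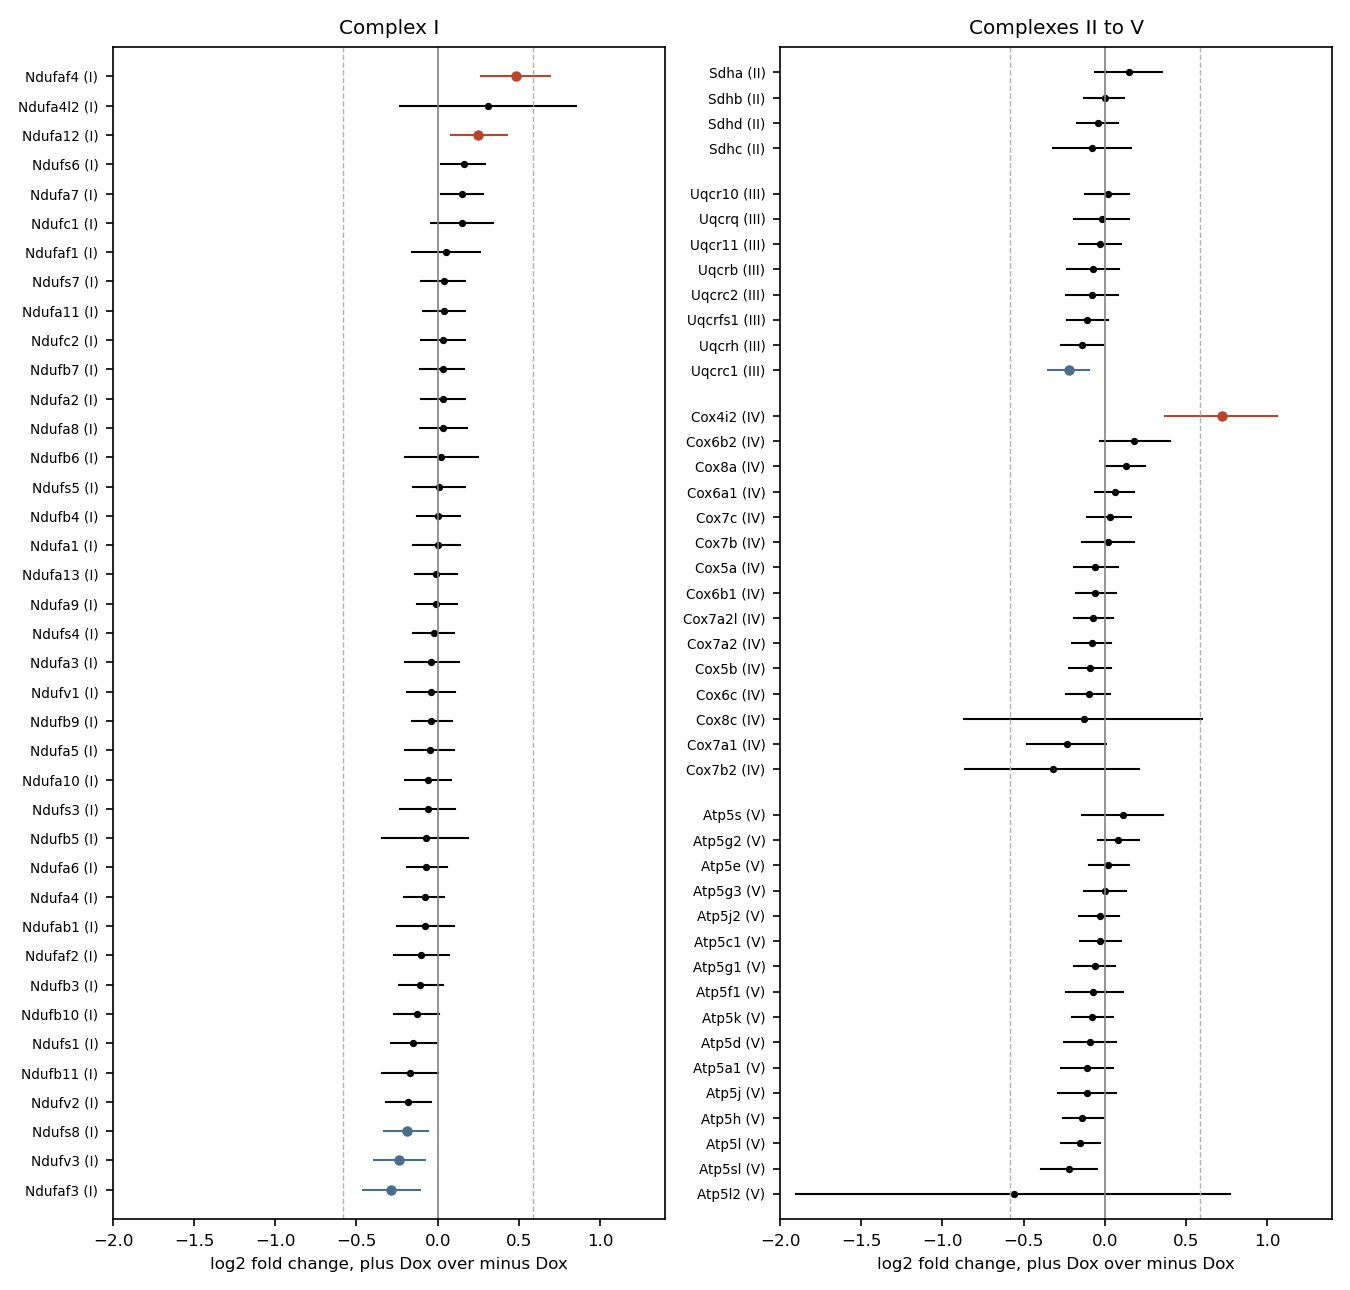
Log2 fold change, doxycycline-treated over untreated, of 82 of the 83 tested members with 95% intervals from the authors' test statistic, complex I on the left and complexes II to V on the right. Red marks the 3 genes that rose and blue the 4 that fell at q under 0.05, and dashed lines mark 1.5-fold in each direction. Only Cox4i2 has its estimate beyond a dashed line, apart from which the widest intervals belong to genes of low level.

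Complex II, succinate dehydrogenase, also works in the tricarboxylic acid cycle. None of its 4 genes was called, against 23.2% of all tested rows. The flavoprotein gene Sdha had 83.3 FPKM in doxycycline-treated and 75.3 FPKM in untreated cells (log2 interval -0.06 to 0.35), and the iron-sulphur subunit gene Sdhb had 112 FPKM in both doxycycline-treated and untreated cells (interval -0.13 to 0.12). The membrane anchors stood at 72.0 FPKM in doxycycline-treated and 76.1 FPKM in untreated cells for Sdhc, and at 133 FPKM in doxycycline-treated and 137 FPKM in untreated cells for Sdhd. With the tool and threshold above, complex II and complex V thus had 0 calls. At an unadjusted p under 0.05 in the authors' deposited table, complex II had none and complex V had 3. These were Atp5h, Atp5l and Atp5sl, the last counted with complex V by its symbol only.

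In complex III, 1 of 8 genes was called (12.5%, against 23.2% of all tested rows). Uqcrc1, which encodes a large core protein on the matrix side, fell to 101 FPKM in doxycycline-treated cells, against 118 FPKM in untreated cells (log2 fold change -0.22, SE 0.064, q = 0.00329 in the authors' deposited table; mm9 chromosome 9, 108838661 to 108851685). On the scale centred on tested rows at 50 FPKM or more it was -0.14, with an interval of -0.26 to -0.02. Its partner core protein gene Uqcrc2 had 151 FPKM in doxycycline-treated and 160 FPKM in untreated cells and was not called, with an interval of -0.24 to 0.08 that overlaps that of Uqcrc1. Uqcrfs1, which encodes the Rieske iron-sulphur protein, had 94.2 FPKM in doxycycline-treated and 101 FPKM in untreated cells. The hinge protein gene Uqcrh was the highest, at 480 FPKM in doxycycline-treated and 528 FPKM in untreated cells (interval -0.27 to -0.01, q = 0.112 in the authors' deposited table). The small subunits Uqcrb, Uqcrq, Uqcr10 and Uqcr11 lay between 230 and 330 FPKM in doxycycline-treated cells and between 233 and 337 FPKM in untreated cells, with no call.

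Complex IV, cytochrome c oxidase, has several subunits with more than 1 nuclear gene. The 9 common subunit genes (Cox5a, Cox5b, Cox6a1, Cox6b1, Cox6c, Cox7a2, Cox7b, Cox7c and Cox8a) ranged from 189 to 977 FPKM in doxycycline-treated cells and from 197 to 957 FPKM in untreated cells. None of the 9 was called, against 23.2% of all tested rows. At an unadjusted p under 0.05 in the authors' deposited table there was 1 of the 9. Their log2 fold changes ran from -0.10 to 0.13. Cox7c was the highest of all tested members, at 977 FPKM in doxycycline-treated and 957 FPKM in untreated cells. Cox8a had 442 FPKM in doxycycline-treated and 404 FPKM in untreated cells, with an interval of 0.01 to 0.25 but q = 0.134 in the authors' deposited table. Cox7a2l, a factor that joins complexes III and IV into supercomplexes, had 154 FPKM in doxycycline-treated and 162 FPKM in untreated cells.

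The 1 call in complex IV, of 15 tested members (6.67%, against 23.2% of all tested rows), was in an isoform gene of restricted use. Cox4i2, the isoform of subunit 4 known from lung and from low oxygen, rose to 3.69 FPKM in doxycycline-treated cells, against 2.25 FPKM in untreated cells (1.64-fold, log2 interval 0.37 to 1.06, q = 0.00034 in the authors' deposited table; mm9 chromosome 2, 152579909 to 152590773). Its common counterpart Cox4i1 was not analysed here, so no isoform share can be given for this subunit. Ndufa4l2, also known as a gene induced by low oxygen, had 6.92 FPKM in doxycycline-treated and 5.57 FPKM in untreated cells and was not called (log2 interval -0.23 to 0.85). Cox6b2, a testis isoform, had 19.3 FPKM in doxycycline-treated and 17.0 FPKM in untreated cells. It made up 4.12% of the summed FPKM of Cox6b1 and Cox6b2 in doxycycline-treated cells and 3.52% in untreated cells. Cox7a1, an isoform of heart and muscle, had 19.0 FPKM in doxycycline-treated and 22.3 FPKM in untreated cells, 6.02% of the sum with Cox7a2 in doxycycline-treated cells and 6.66% in untreated cells. The testis isoforms Cox7b2 (1.0 FPKM in doxycycline-treated and 1.25 FPKM in untreated cells) and Cox8c (0.595 FPKM in doxycycline-treated and 0.652 FPKM in untreated cells) each came to under 1% of their subunit in either group. The heart and muscle isoforms Cox6a2 and Cox8b were not tested, Cox6a2 at 0.0521 FPKM in doxycycline-treated and 0.053 FPKM in untreated cells and Cox8b listed at 0 in both. The common isoform thus held most of the signal of each pair in both groups.

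**Figure D4:**
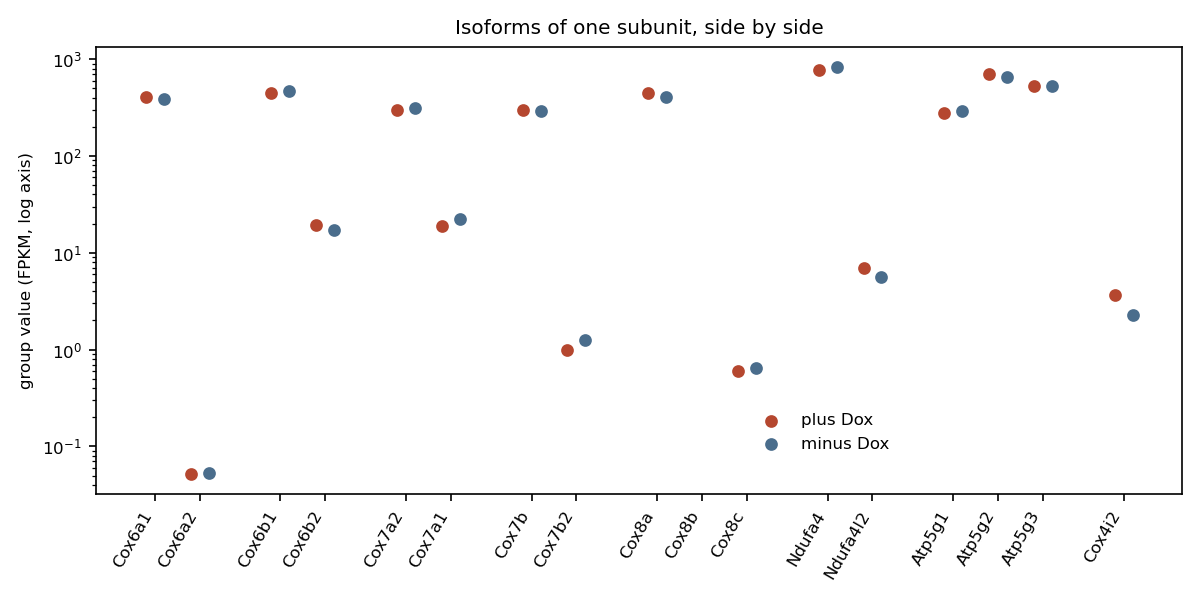
Group values in FPKM (log axis) of genes that encode alternative forms of 1 subunit, with doxycycline-treated cells to the left of untreated cells for each gene. Cox8b is listed at 0 and not drawn, and Cox4i2 stands alone because Cox4i1 was not analysed here. The restricted forms reach at most 22.3 FPKM, and the common forms are at 281 FPKM or more in both groups.

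Complex V had no call among 16 tested members, against 23.2% of all tested rows. Of the catalytic F1 head, the alpha subunit gene Atp5a1 had 439 FPKM in doxycycline-treated and 472 FPKM in untreated cells. The gamma subunit gene Atp5c1 had 302 FPKM in doxycycline-treated and 308 FPKM in untreated cells. The delta gene Atp5d had 174 FPKM in doxycycline-treated and 185 FPKM in untreated cells, and the epsilon gene Atp5e 517 FPKM in doxycycline-treated and 509 FPKM in untreated cells. The catalytic beta subunit gene Atp5b was listed at 0 in both groups with status HIDATA, Cuffdiff's mark for a locus that holds too many fragments. That zero is a failed estimate and not a level, so Atp5b was not assessed.

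The membrane part and stalk of complex V were as even. The proton-carrying c subunit is made from Atp5g1, Atp5g2 and Atp5g3, whose products differ in the presequence that is cut off in the mitochondrion. Atp5g2 held 46.3% of their summed FPKM in doxycycline-treated and 44.6% in untreated cells. Atp5g3 held 35.0% in doxycycline-treated and 35.6% in untreated cells, and Atp5g1 held 18.7% in doxycycline-treated and 19.9% in untreated cells. None of the 3 was called, and their log2 intervals all lay between -0.19 and 0.21. The largest nominal difference in this part at 10 FPKM or more was that of Atp5l (subunit g), with 467 FPKM in doxycycline-treated and 519 FPKM in untreated cells (interval -0.27 to -0.03, q = 0.0687 in the authors' deposited table). Atp5sl, now known as a complex I assembly factor despite its symbol, had 22.6 FPKM in doxycycline-treated and 26.3 FPKM in untreated cells (q = 0.0568 in the authors' deposited table). Atp5l2, a pseudogene in RefSeq, had 0.211 FPKM in doxycycline-treated and 0.312 FPKM in untreated cells. Its reads may be shared with Atp5l, and how the authors treated reads of near-identical copies is not given in the sources used here.

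Some of these genes share their locus with another row. No strand-marking step is mentioned in the protocol, so reads at overlapping ends may not be separable. Locus sharing holds for 23 of the 86 members and for none of the 7 that were called. The share among all rows was not analysed here, so no trait of the family is read from these counts. One such pair is Atp5j, which encodes coupling factor 6 of the stalk, and Gabpa, an ETS-family activator of respiratory genes. Atp5j had 301 FPKM in doxycycline-treated and 324 FPKM in untreated cells, and Gabpa had 23.5 FPKM in doxycycline-treated and 22.6 FPKM in untreated cells. Neither was called.

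Promoters are shown for 4 members chosen after their values were seen, because they carry letters bound by known regulators of respiratory genes while the genes differed in response. Ndufaf4 rose, Uqcrc1 and Ndufs8 fell and Cox6a1 was not called. The windows, from 250 bases before to 50 after the gene's start, are RefSeq's in build GRCm38.p6, not the mm9 of the loci above, at chr4:24897833-24898132 (plus strand), chr9:108936398-108936697 (plus strand), chr19:3912725-3913024 (minus strand) and chr5:115348909-115349208 (minus strand). Capitals mark matches on either strand to the NRF1 palindrome (nuclear respiratory factor 1: GCGC, then A, any base, and GCGC again), CCGGAAG (ETS factors such as GABPA), GGGCGG (the GC box of Sp and Klf factors, a family that includes Sp5) or AAGATGG (YY1).
Ndufaf4: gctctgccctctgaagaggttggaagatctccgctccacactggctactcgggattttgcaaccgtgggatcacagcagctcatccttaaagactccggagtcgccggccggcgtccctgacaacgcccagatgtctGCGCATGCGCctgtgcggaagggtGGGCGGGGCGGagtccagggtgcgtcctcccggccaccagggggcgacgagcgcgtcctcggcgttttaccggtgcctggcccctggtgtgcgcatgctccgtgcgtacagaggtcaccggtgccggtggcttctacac
Uqcrc1: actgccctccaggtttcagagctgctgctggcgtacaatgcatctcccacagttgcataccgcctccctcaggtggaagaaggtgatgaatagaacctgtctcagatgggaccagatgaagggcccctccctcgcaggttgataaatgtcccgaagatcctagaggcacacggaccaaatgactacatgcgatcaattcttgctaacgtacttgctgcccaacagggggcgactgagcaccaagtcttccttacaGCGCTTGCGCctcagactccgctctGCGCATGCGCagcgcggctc
Ndufs8: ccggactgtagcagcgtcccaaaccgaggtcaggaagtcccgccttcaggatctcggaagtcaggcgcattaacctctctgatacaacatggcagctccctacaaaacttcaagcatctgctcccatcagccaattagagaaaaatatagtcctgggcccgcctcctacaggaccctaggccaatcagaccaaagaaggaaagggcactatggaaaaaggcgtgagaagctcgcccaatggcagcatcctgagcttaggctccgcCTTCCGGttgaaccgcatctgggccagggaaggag
Cox6a1: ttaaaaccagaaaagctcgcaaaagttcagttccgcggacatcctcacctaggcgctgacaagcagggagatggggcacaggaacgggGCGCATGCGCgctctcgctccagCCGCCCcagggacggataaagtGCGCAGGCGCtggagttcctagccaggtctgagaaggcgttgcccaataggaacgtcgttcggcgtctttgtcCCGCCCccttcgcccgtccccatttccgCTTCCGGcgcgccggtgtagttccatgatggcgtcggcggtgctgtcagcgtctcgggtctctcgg

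A promoter window was found for 71 of the 86 members, 3 of them through an older symbol, and 1 window was used per gene. NRF1 letters stood in 16 of the 71 (22.5%), against 4.78% of all 27025 promoters and 13.5% of the promoters of genes tested at 10 FPKM or more. ETS letters stood in 22.5% of members, 9.12% of all promoters and 23.4% of those expressed genes. GC boxes stood in 45.1% of members, 35.9% of all promoters and 68.2% of the expressed genes, and YY1 letters in 14.1% of members, 6.48% of all and 8.87% of the expressed genes. Of the 6 called members with a window, 4 held a GC box, as did 28 of the 65 other members. NRF1 letters stood in 2 of the 6 called members and in 14 of the 65 others. The Ndufaf4 window holds 2 overlapping GC boxes, each counted. These are matches of letters, not measured binding.

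Factors that regulate respiratory genes showed no call. Of 23 regulators with a row of their own, 17 were tested and none passed the threshold, against 23.2% of all tested rows. At an unadjusted p under 0.05 in the authors' deposited table there were 2, against 31.2% of all tested rows. NRF1, the activator named above, had 35.7 FPKM in doxycycline-treated and 35.4 FPKM in untreated cells (gene Nrf1). Tfam, which packages mitochondrial DNA, had 84.2 FPKM in doxycycline-treated and 84.5 FPKM in untreated cells. Esrra, an orphan nuclear receptor that activates respiratory genes, had 5.34 FPKM in doxycycline-treated and 7.72 FPKM in untreated cells and was the nearest to the threshold (q = 0.06 in the authors' deposited table). Ppargc1a, the coactivator that drives mitochondrial biogenesis in muscle and brown fat, stood at 0.0371 FPKM in doxycycline-treated and 0.015 FPKM in untreated cells and was not tested. Sp1, Esrrb, Polrmt and Gabpb2 had status FAIL, with no test.

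Of 26 tested assembly factors outside the symbol rule, 1 was called (3.85%, against 23.2% of all tested rows). Tmem126b, which works in complex I assembly, fell to 11.7 FPKM in doxycycline-treated cells, against 13.8 FPKM in untreated cells (q = 0.0266 in the authors' deposited table). The copper and haem factors of complex IV, among them Sco1, Sco2, Cox10, Cox11 and Cox15, were not called, and Surf1 had status FAIL. Of 9 chain subunits and carriers outside the rule, 1 was called (11.1%). That was Etfb, a subunit of the flavoprotein that feeds electrons from fatty acid oxidation. Etfb rose to 69.7 FPKM in doxycycline-treated cells, against 61.0 FPKM in untreated cells (q = 0.0307 in the authors' deposited table). Cyc1, the cytochrome of complex III, had 180 FPKM in doxycycline-treated and 195 FPKM in untreated cells, and Cycs, the somatic cytochrome c, had 164 FPKM in doxycycline-treated and 163 FPKM in untreated cells. Neither was called.

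Of 18 genes of pyruvate oxidation and the tricarboxylic acid cycle, which feed the chain, 1 rose, 3 fell and 14 were not called. The share called, 22.2%, was near the 23.2% of all tested rows. Suclg2, the GTP-forming subunit of succinyl-CoA synthetase, fell to 16.5 FPKM in doxycycline-treated cells, against 34.2 FPKM in untreated cells (2.06-fold lower, log2 interval -1.17 to -0.92, and q is 0 in the authors' deposited table). Its ATP-forming counterpart Sucla2 had 48.2 FPKM in doxycycline-treated and 49.8 FPKM in untreated cells and was not called, and the shared alpha subunit gene Suclg1 fell to 75.3 FPKM in doxycycline-treated cells, against 84.9 FPKM in untreated cells. Pdha1, the catalytic subunit of pyruvate dehydrogenase, rose to 99.7 FPKM in doxycycline-treated cells, against 65.6 FPKM in untreated cells (1.52-fold, where the authors' deposited table gives q as 0). Its partner Pdhb had 89.5 FPKM in doxycycline-treated and 95.2 FPKM in untreated cells, with no call. Ogdh, of the oxoglutarate dehydrogenase complex, fell to 20.8 FPKM in doxycycline-treated cells, against 24.9 FPKM in untreated cells. Of 21 genes of protein import and cristae, Timm17b rose, Tomm40 and Apoo fell and 18 were not called, a share of 14.3% called. The member with the largest difference there was Apoo, a cristae protein gene, at 30.1 FPKM in doxycycline-treated and 39.5 FPKM in untreated cells.

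**Figure D5:**
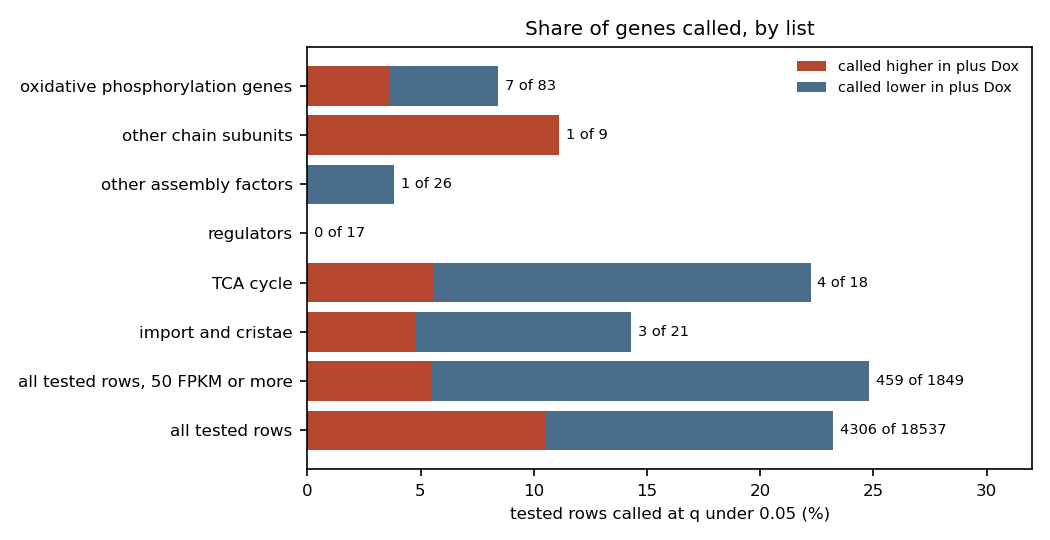
Percent of tested rows called at q under 0.05 in each list, split into higher (red) and lower (blue) in doxycycline-treated cells, with the counts beside the bars. The oxidative phosphorylation genes had 7 of 83 called, the regulators 0 of 17, the tricarboxylic acid cycle list 4 of 18 and all tested rows 4306 of 18537. The lists differ in size and level, and no test between them was made.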

How the data were processed

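Poly(A)-selected RNA was sequenced in 6 libraries, 3 of each group. The submitters' processing notes name mm9 as the build and list Cuffdiff, Cufflinks 2.0.2, Picard, Bowtie and TopHat2 2.0.8. Annotation, library scaling and filters: not given in the sources used here. FPKM values (1 per group), p-values, q-values and the test statistic are as the authors deposited them. The log2 fold change was recomputed from the 2 FPKM values as the authors deposited them, without a pseudocount, and differed from the deposited log2 column by at most 1.31e-05. The test was laid out for values per library where given; with 1 value per group, the authors' calls (status OK, q under 0.05) were used.

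The two-sided normal p of the deposited test statistic equalled the deposited p-value to within 2.84e-06 in 18284 rows, so the statistic gave the standard errors. Functions were tested on simulated data. Locus starts were read as 0-based and written from 1, because spans then equalled RefSeq gene lengths for 3403 of 16504 loci, against 304 read as 1-based. Zeros in the 116 rows with status HIDATA were read as failed estimates. Members, lists and tests were chosen with earlier results of these data known. Every member but 1, which counts and summaries include, could be named. Called members, the highest and most changed of each complex, isoforms, untested members and assembly factors are given with values. From other lists the called genes are named except some ES cell markers, and not all with values. A few others there were chosen after their values were seen. Python 3.11.15, numpy 2.4.6, pandas 2.3.3, scipy 1.17.1 and matplotlib 3.10.9 were used.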

Additional observations from a re-analysis of the deposited data

How the results depend on the processing

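Of the 7 calls, 4 had q under 0.01 (2 lower, and 2 in complex I), 4 were of genes at 50 FPKM or more (1 higher, and 3 in complex I; a level chosen after seeing the data), and 1 was a change of at least 1.5-fold (1 higher, 0 lower, 0 in complex I and 0 in complex III). With structural subunits only, complex I had 3 calls. At 10 FPKM or more and at 50 FPKM or more, complex IV had 0 calls. These counts drop because each alternative keeps fewer genes or fewer calls. A minimum of 1 FPKM and leaving out loci shared with other rows each left 7 calls. Neither could remove a call, because all 7 called genes were above 1 FPKM and none shared a locus.

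The members' median log2 fold change of -0.0433 ranged from -0.0465 to -0.0362 under 2 pseudocounts, 3 level minimums, loci shared with other rows left out and structural subunits only. It changed sign when centred on the median of tested rows at 1 FPKM or more (0.000414), 10 FPKM or more (0.0175) or 50 FPKM or more (0.0388, chosen after seeing the data). The medians subtracted, -0.0437, -0.0608 and -0.0822, were smaller in size than each of the 7 called estimates, so those signs could not change. Centred at 50 FPKM or more, the falls became -0.20 for Ndufaf3, -0.15 for Ndufv3, -0.14 for Uqcrc1 and -0.11 for Ndufs8. The intervals of Ndufv3 (-0.31 to 0.01) and Ndufs8 (-0.24 to 0.02) then hold 0, and that of Ndufs8 also does when centred at 10 FPKM or more. No paired analysis was possible because the columns hold 1 value per group, and for the same reason no replicate was left out. Depth is unknown, so the smallest detectable change is known only through the authors' standard errors.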

Other observations

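Several genes of the same complexes stand in rows that name more than 1 gene and so were not members. The row of Atp5o (the OSCP subunit of the complex V stalk) and Donson had 314 FPKM in doxycycline-treated and 342 FPKM in untreated cells. The row with Ndufb8 and 2 other genes had 202 FPKM in doxycycline-treated and 208 FPKM in untreated cells, and the row of Ndufb2 and Adck2 had 143 FPKM in doxycycline-treated and 139 FPKM in untreated cells. None of the 3 was called in the authors' deposited table, and their reads cannot be assigned to 1 gene. The pseudogene Atp5l-ps1 had 0.041 FPKM in doxycycline-treated and 0.115 FPKM in untreated cells and was not called.

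The subunits encoded in mitochondrial DNA gave no levels to set beside the nuclear ones. All 13 fell in 4 rows with status HIDATA that are listed at 0 in both groups, which are failed estimates. One mitochondrial row was tested, that of 4 tRNA genes (mt-Ta, mt-Tc, mt-Tn and mt-Ty). It had 181 FPKM in doxycycline-treated and 395 FPKM in untreated cells (log2 fold change -1.12, and in the authors' deposited table q is 0). The row merges 4 genes, so no value for a single tRNA can be given. The libraries were poly(A)-selected, so the row is not a measure of tRNA level. Whether its reads came from the tRNAs or from adjoining mitochondrial transcripts was not tested.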
